A study of Mus musculus with 16 samples.

Results

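The genes described here carry out fatty acid oxidation and ketone use in mouse brown adipocytes. They are a list of 37 symbols, from the carnitine shuttle that brings long-chain fatty acids into mitochondria to the enzymes that make acetyl-CoA from ketone bodies. A gene was a member where its row in the deposited count table had one of these symbols. Of the 37 symbols, 36 had a row among the 54347 genes listed, and 32 of these were among the 13150 genes with enough counts to be tested. The symbol Ucp3os, a transcript of the strand opposite to the uncoupling protein gene Ucp3, was not analysed here. Acot1, Acot11, Bdh1 and Acss1 had rows but stayed below the filter on low counts.

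The libraries came from wt1-SAM cells, an immortalized brown preadipocyte line with a stable CRISPRa SAM system: Cas9 that cannot cut is led by a single guide RNA (sgRNA) to a gene and brings activators of transcription there. All cells were differentiated with a cocktail that held rosiglitazone, which activates the fat cell regulator PPARG, and rosiglitazone was also in the later differentiation media, though not in the medium used for transfection. On day 4 of differentiation, 250 ng of plasmid was transfected, either the empty vector or the 2 sgRNA vectors (numbers 2 and 7) against the long noncoding RNA gene Gm15551 together, and RNA was taken later from the mature adipocytes. Control and stimulated cells differed in 1 µM isoproterenol, an agonist of β-adrenergic receptors, over the last 24 h. The 4 groups (empty vector control, empty vector stimulated, sgRNA control, sgRNA stimulated) held 4 libraries each, with replicate numbers 3, 4, 5 and 6 in every group, which made 16 libraries and 8 pairs of a stimulated library with the control of the same plasmid and number. The line is 1 immortalized line, nothing in the labels says what a replicate number stands for, and p-values measure the spread between these libraries, which may be technical.

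In β-oxidation an acyl-CoA is shortened in a cycle of dehydrogenation, hydration, a further oxidation and thiolysis, and the electrons leave through flavoproteins and NADH to the respiratory chain. Entry into mitochondria is set by the carnitine palmitoyltransferase CPT1, which malonyl-CoA inhibits, and peroxisomes shorten the chains that mitochondria handle poorly. Brown adipocytes burn fatty acids in this way to make heat once noradrenaline, or an agonist such as isoproterenol, starts lipolysis.

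The libraries held 9053521 to 16546187 counts each, of which a ribosomal RNA gene took 11.7 to 51.8%. Levels are given as CPM, counts scaled to a library of 1000000 counts on tested genes after TMM scaling. Fabp4 and the other 9 adipocyte markers were all present, with a mean of 14462 CPM for Fabp4. Ucp1 was at 0 to 0.979 CPM in controls and at 4.37 to 15.5 CPM after isoproterenol (log2 fold change 4.03 in edgeR's test, adjusted p = 7.36e-06), and Dio2 had at most 1 count in a library. Gm15551 had 3 to 18 counts in the empty vector controls and 19 to 56 in the sgRNA controls, and 0 to 5 and 13 to 26 in the stimulated cells of each. 2 libraries stood apart in how their levels followed GC content, the stimulated empty vector library of replicate 3 and the empty vector control of replicate 6 (Spearman rho -0.38 and -0.31 across 13141 genes, against -0.16 to 0.27 in the others, described without a test), and the main isoproterenol counts are given with and without them.

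The stretches of DNA just before the start sites of members that moved most are shown here, so that the genes behind the values can be located. The promoter table from RefSeq (build GRCm38.p6) had an entry for 25 of the 32 tested members, and the 250 bases before each start were searched on both strands for 5 short motifs. Shown are Hadh, Etfb and Acot2, the members with the largest falls whose stretch held no annotated exon, and Acadm, the member with the AAGGTCA motif. The stretches are chr3:131272102-131272351 on the minus strand for Hadh, chr7:43443822-43444071 on the plus strand for Etfb, chr12:83987611-83987860 on the plus strand for Acot2 and chr3:153944644-153944893 on the minus strand for Acadm, each written 5′ to 3′ towards its gene and ending at the base before the start. Capitals mark the motifs found.
Hadh: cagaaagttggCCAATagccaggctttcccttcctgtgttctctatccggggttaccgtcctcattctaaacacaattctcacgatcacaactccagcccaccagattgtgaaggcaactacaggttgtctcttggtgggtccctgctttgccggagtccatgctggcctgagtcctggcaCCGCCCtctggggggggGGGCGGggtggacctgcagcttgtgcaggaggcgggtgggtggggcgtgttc
Etfb: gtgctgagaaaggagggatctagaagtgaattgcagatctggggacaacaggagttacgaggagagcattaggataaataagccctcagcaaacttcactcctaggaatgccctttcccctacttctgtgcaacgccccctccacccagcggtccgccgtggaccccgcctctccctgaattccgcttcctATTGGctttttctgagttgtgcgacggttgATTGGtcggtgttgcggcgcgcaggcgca
Acot2: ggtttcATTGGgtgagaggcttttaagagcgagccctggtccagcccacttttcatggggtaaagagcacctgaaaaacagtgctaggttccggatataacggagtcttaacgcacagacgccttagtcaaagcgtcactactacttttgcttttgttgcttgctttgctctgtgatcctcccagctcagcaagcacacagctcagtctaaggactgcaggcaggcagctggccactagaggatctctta
Acadm: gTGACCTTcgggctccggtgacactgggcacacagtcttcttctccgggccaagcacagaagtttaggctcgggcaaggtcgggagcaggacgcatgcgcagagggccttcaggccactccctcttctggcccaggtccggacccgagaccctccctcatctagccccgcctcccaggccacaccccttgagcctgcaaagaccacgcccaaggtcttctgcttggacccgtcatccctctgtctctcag

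The motif AAGGTCA, which nuclear receptors of the ERR family bind, was in the stretch of 1 of the 25 members, Acadm, and in 4.08% of all 32851 promoter entries. The direct repeat that PPAR binds, 2 copies of AGGTCA with 1 base of any kind between them, can overlap AAGGTCA and was in 0 of the 25 and in 0.0335% of all entries. The cAMP response element TGACGTCA was also in 0 of the 25, against 1.55% of all entries. The general promoter motifs CCAAT and GGGCGG were in 12 and 15 of the 25, against 33.8% and 32.7% of all entries. A match describes these letters in this window and no more.

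Before any stimulus, the members spanned a wide range of levels. Compared per kilobase of transcript in the empty vector controls (mean CPM per kilobase ± SD, n = 4), the highest were Etfb at 327 ± 150 and Etfa at 295 ± 24.5, the subunits of the electron transfer flavoprotein that takes electrons from all acyl-CoA dehydrogenases. Next came the medium-chain dehydrogenase Acadm at 280 ± 71.4, the trifunctional protein subunit Hadhb at 234 ± 34.9, the long-chain dehydrogenase Acadl at 208 ± 53.9 and the enoyl-CoA isomerase Eci1 at 202 ± 63.1. Each gap between neighbours in this order was smaller than the larger of their SDs. The CPT1 forms were far lower on the same scale, with Cpt1a at 5.74 ± 0.865, Cpt1b, the form known from muscle and brown fat, at 4.48 ± 1.04, and Cpt1c, the form known from the endoplasmic reticulum of neurons, at 0.832 ± 0.446. The inner membrane enzyme Cpt2 stood at 52.5 ± 5.76. Transcript lengths were medians of the annotated coding transcripts, so levels of genes with several transcript lengths are approximate.

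The members below the filter were at the limit of detection. Bdh1, which oxidizes the ketone body β-hydroxybutyrate to acetoacetate, had 0 counts in 14 libraries and at most 1 in the others. The mitochondrial acetyl-CoA synthetase Acss1 had 0 in 12 libraries and at most 1, the thioesterase Acot11 at most 3, and Acot1 at most 8. A count of 0 allows up to 3 counts, which in these libraries is 0.166 to 0.390 CPM, and this limit covers counting error only. Acot1 and Acot2 are close copies of each other, so the split of reads between them is uncertain.

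The comparison that moved these genes was isoproterenol against control, averaged over both plasmids. Of the 32 members tested, 28 had a lower fitted level in stimulated cells, while 49.0% of all genes were lower, and the median log2 fold change was -0.20 for the members and 0.00 for all genes. The members that were lower included dehydrogenases, enzymes of the second oxidation, peroxisomal enzymes and both tested enzymes of ketone use. The other 4 had fitted values above 0: Cpt1b at 0.52, Cpt1a at 0.35, Hadhb at 0.10 and Cpt1c at 0.05. The calls turned on whether the fit took the replicate number into account.

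In the fit without it, 4 of the 32 members passed (edgeR's quasi-likelihood test, adjusted p under 0.05), against 4.49% of all genes. All 4 were lower, against 2.43% of all genes lower and 2.06% higher: Acad11, Acat1, Hadh and Pex11a. Beyond an absolute log2 fold change of 0.5, 1 passed, Hadh, against 2.65% of all genes. DESeq2 also called 4 members, all lower, against 6.51% of all genes in either direction. With the replicate number as a block, 19 of the 32 passed, against 21.3% of all genes, of which 17 were lower, against 10.4%, and 2 higher, against 10.9%. Of these, 2 had an absolute log2 fold change over 0.5, Hadh and Etfb, against 5.7% of all genes. Without any test, 12 members were lower in all 8 pairs, where 7.67% of all genes were, and 1 member, Cpt1a, was higher in all 8, where 8.16% of all genes were. The 8 stimulated libraries lay wholly below the 8 controls for 2 members, Acad11 and Pex11a, as they did for 0.76% of all genes.

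**Figure D1:**
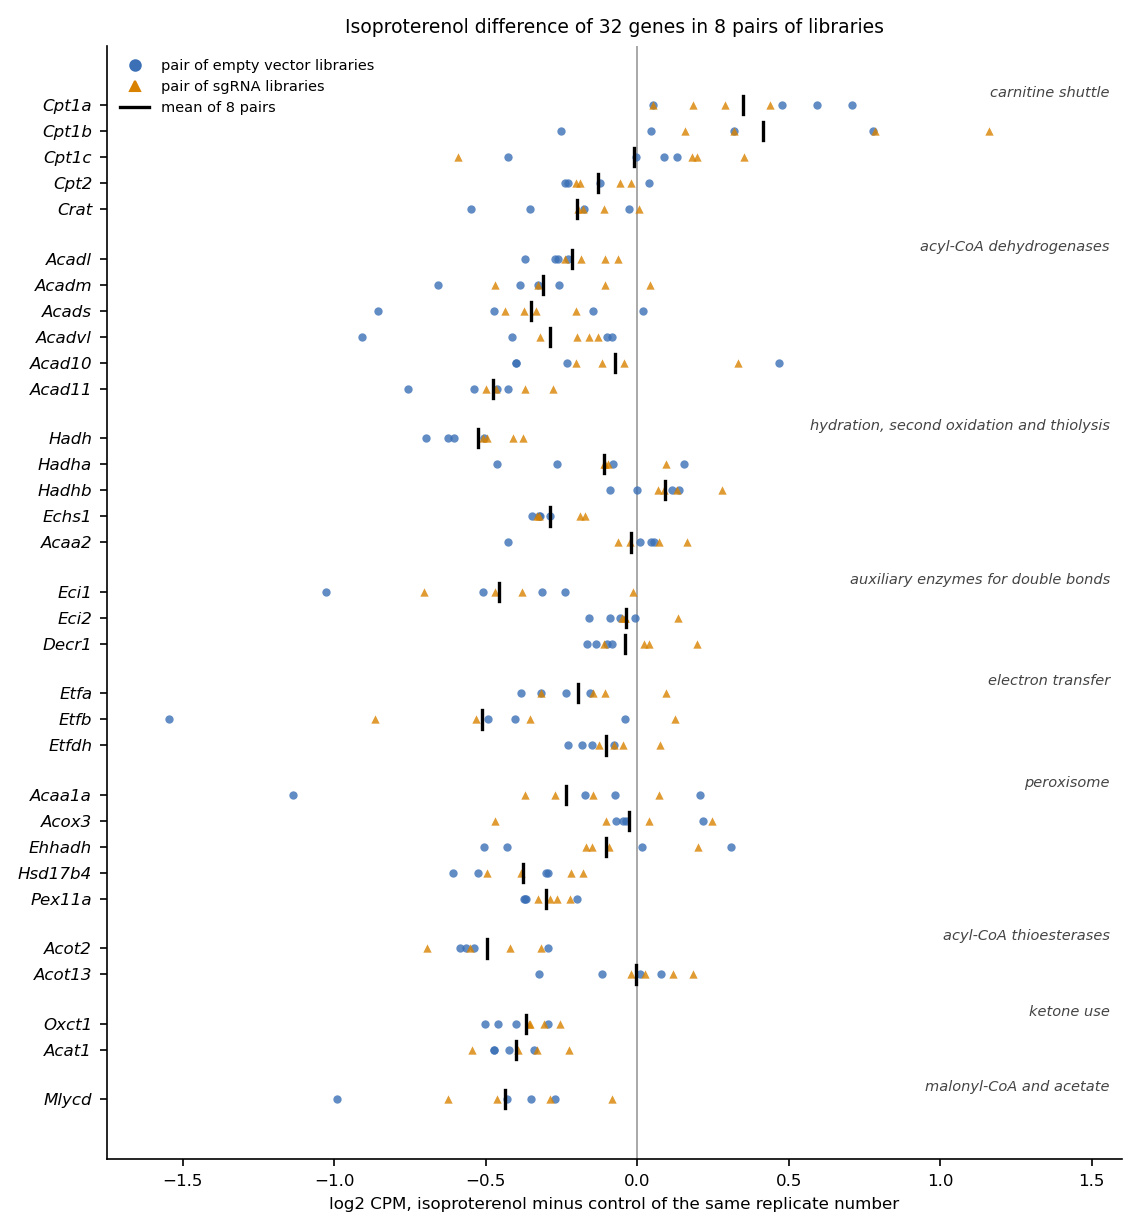
Difference in log2 CPM between a stimulated library and its control of the same plasmid and replicate number (horizontal axis) for the 32 tested members, grouped by role. Circles are empty vector pairs, triangles sgRNA pairs and black bars the mean of 8 pairs. Most members lie left of 0, with Cpt1a and Cpt1b to the right.

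At the entry of the pathway the direction was mixed. Cpt1a (ENSMUSG00000024900, chr19:3322334-3385733), the CPT1 form of liver and many other tissues, had 28.1, 20.4, 23.0 and 27.6 CPM in empty vector controls of replicates 3, 4, 5 and 6 and 29.1, 28.4, 37.7 and 41.8 CPM after stimulation. With the sgRNA vectors it had 26.2, 23.9, 19.7 and 32.5 CPM in controls and 29.8, 24.8, 26.8 and 39.8 CPM after stimulation. Every stimulated library was above its own control, and the empty vector groups did not overlap while the sgRNA groups did. Its log2 fold change was 0.35 ± 0.13 (SE) without the block, where it did not pass (adjusted p = 0.146), and 0.35 ± 0.08 with the block, where it rose (adjusted p = 0.00460). Over the alternatives of the fit with the block its adjusted p ran from 0.00102 to 0.0489.

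Cpt1b (ENSMUSG00000078937, chr15:89416405-89425863) was at 10.5, 11.0, 17.1 and 13.2 CPM in empty vector controls and 10.8, 9.24, 29.5 and 16.5 CPM after stimulation. In sgRNA controls it was at 10.4, 10.0, 12.3 and 12.5 CPM, and after stimulation at 13.1, 11.2, 27.6 and 21.6 CPM. The groups overlapped, and the high values were those of replicates 5 and 6. The log2 fold change was 0.52 ± 0.23 without the block (adjusted p = 0.256) and 0.44 ± 0.12 with it (adjusted p = 0.0182, from 0.00528 to 0.125 over the alternatives). Without replicate 5 the blocked value was 0.24 and the call was lost, as it was without replicate 6. The exons of Cpt1b overlap those of Gm44502 on the same strand, and reads of the overlap cannot be assigned to either.

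Cpt2, which rebuilds acyl-CoA inside the mitochondrion, did not pass in either fit, with a log2 fold change of -0.12 ± 0.10. Without the block this value ran from -0.19 to -0.08 with libraries left out. With the block Cpt2 passed without replicate 5, and without the stimulated empty vector library or the sgRNA control of that number (adjusted p down to 0.0114). The carnitine acetyltransferase Crat had 252 ± 42.3 CPM in empty vector controls and 212 ± 61.2 CPM after stimulation (SD, n = 4), and 236 ± 23.5 and 218 ± 34.0 CPM in sgRNA cells. It passed with the block at a log2 fold change of -0.20 ± 0.06, but the call was lost in 14 settings that left out libraries, among them those without replicate 3, 4 or 6 (adjusted p up to 0.185).

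The acyl-CoA dehydrogenases, which start each cycle, included 5 members that fell in the fit with the block. All 6 had a lower fitted level in stimulated cells, 1 passed without the block and 5 with it. This count and those of the other roles stand against 2.43% of all genes lower without the block and 10.4% with it. Acad11 (ENSMUSG00000090150, chr9:104063377-104127725) had 70.9, 52.2, 60.9 and 56.5 CPM in empty vector controls and 41.9, 37.9, 41.9 and 42.0 CPM after stimulation. In sgRNA cells it had 61.6, 50.03, 56.4 and 54.6 CPM in controls and 43.6, 36.2, 46.5 and 42.2 CPM after stimulation. All 8 stimulated libraries lay below all 8 controls. Its log2 fold change was -0.48 ± 0.08 without the block (adjusted p = 0.00141) and -0.48 ± 0.05 with it (adjusted p = 3.39e-06), and its call held in all alternatives of both fits, with a highest adjusted p of 0.0316.

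Acadm (ENSMUSG00000062908, chr3:153922357-153944632), the medium-chain enzyme, had 563, 415, 769 and 548 CPM in empty vector controls and 357, 347, 589 and 436 CPM after stimulation. In sgRNA controls it had 561, 403, 824 and 666 CPM, and after stimulation 448, 414, 765 and 481 CPM. The groups overlapped widely, since replicate 5 was high and replicate 4 low in each, but 7 of the 8 pairs were lower after stimulation. The log2 fold change was -0.31 ± 0.18 without the block (adjusted p = 0.395) and -0.31 ± 0.06 with it (adjusted p = 0.00160, at most 0.0211 over the alternatives).

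The other chain-length forms had the same direction. Acads, for short chains, had a log2 fold change of -0.35 ± 0.14, Acadvl, for very long chains, one of -0.27 ± 0.14 and Acadl, for long chains, one of -0.21 ± 0.15 in the fit without the block, where none of these passed. In that fit Acadl was at -0.11 when the empty vector control of replicate 5 was left out. With the block all 3 fell, and the calls of Acads and Acadvl were lost without replicate 4 (adjusted p = 0.0556 and 0.0717, the highest among their alternatives). Acadvl shares exon sequence with Dvl2 on the other strand, and the sources used here do not say whether counting used the strand. Crat, Echs1 and Oxct1, among others, also share exon sequence with genes on the other strand. Acad10 did not pass in either fit.

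Of the 5 tested members of the later steps of the cycle, 1 passed without the block, Hadh, and 2 with it, Hadh and Echs1. Hadh (ENSMUSG00000027984, chr3:131233419-131272101), the 3-hydroxyacyl-CoA dehydrogenase of the matrix, had 392, 325, 432 and 254 CPM in empty vector controls and 242, 214, 280 and 179 CPM after stimulation. The sgRNA cells had 378, 297, 368 and 271 CPM in controls and 268, 229, 277 and 191 CPM after stimulation. Each stimulated library was well below its own control, though the groups overlapped because replicate 6 was low throughout. Hadh had a log2 fold change of -0.53 ± 0.13 without the block (adjusted p = 0.0262) and -0.53 ± 0.04 with it (adjusted p = 5.30e-07, from 2.66e-07 to 8.52e-05 over the alternatives of that fit). Without the block its call was lost in 11 settings that left out libraries, namely without replicates 3, 4 or 5 as a whole and without a single control of replicate 3 or 5 or a single stimulated library of replicate 4 or 6, and the adjusted p then reached 0.231. With the block it held in every setting run.

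Hadha (ENSMUSG00000025745, chr5:30118304-30155162), the trifunctional protein subunit with hydratase and long-chain dehydrogenase activity, had 464, 426, 576 and 487 CPM in empty vector controls and 336, 355, 641 and 461 CPM after stimulation. In sgRNA controls it had 458, 425, 629 and 537 CPM, and after stimulation 425, 397, 672 and 499 CPM. Replicate 5 was the highest in each group and the only number higher after stimulation, so that 6 of the 8 pairs were lower. Neither fit passed it, and the log2 fold change of -0.08 had a 95% interval from -0.40 to 0.24. It was -0.02 without the stimulated empty vector library of replicate 3 and -0.19 without that of replicate 5. With the block the value was -0.11, and without all of replicate 5 it was -0.19 and passed (adjusted p = 0.0364). Its partner Hadhb, which lies head to head with it on chr5, had a log2 fold change of 0.10 (interval from -0.16 to 0.37), or 0.02 without the stimulated sgRNA library of replicate 5, and did not pass either. The hydratase Echs1 passed with the block, at -0.29 ± 0.04, and was lower in all 8 pairs. Acaa2, the mitochondrial thiolase, did not pass in either fit.

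Of the auxiliary enzymes, which make unsaturated chains fit for the cycle, Eci1 fell with the block. It had 290, 197, 270 and 137 CPM in empty vector controls and 142, 167, 190 and 111 CPM after stimulation. The sgRNA cells had 253, 197, 233 and 176 CPM in controls and 183, 195, 179 and 108 CPM after stimulation. All 8 pairs were lower, by little in replicate 4 of the sgRNA cells. The log2 fold change was -0.46 ± 0.17 without the block (adjusted p = 0.138) and -0.46 ± 0.09 with it (adjusted p = 0.00127, at most 0.0128 over the alternatives). Eci2 and the dienoyl-CoA reductase Decr1 passed in neither fit.

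Of the 3 members of electron transfer, 2 passed with the block only. Etfb (ENSMUSG00000004610, chr7:43444083-43457800) had 446, 321, 276 and 122 CPM in empty vector controls and 153, 243, 196 and 119 CPM after stimulation. In sgRNA controls it had 375, 288, 344 and 245 CPM, and after stimulation 260, 314, 270 and 135 CPM. The largest drop was that of the empty vector pair of replicate 3, replicate 6 was low throughout, and the sgRNA pair of replicate 4 went up. The log2 fold change was -0.54 ± 0.23 without the block (adjusted p = 0.237) and -0.53 ± 0.13 with it (adjusted p = 0.0103, from 0.00279 to 0.0582 over the alternatives). Leaving out the stimulated empty vector library of replicate 3 gave -0.44 with the block (adjusted p = 0.0233), and leaving out all of replicate 3 gave -0.36, at which the call was lost. Etfb shares exons with Gm45233 on the same strand. Its partner Etfa passed with the block at -0.20 ± 0.05, a call lost without replicate 5 or 6 (adjusted p up to 0.0922), and Etfdh, which hands the electrons to ubiquinone, did not pass in either fit, at -0.09 ± 0.12. Without the block Etfdh ran from -0.17 to -0.04 with libraries left out. It passed when a GC correction was added to the block fit (adjusted p = 0.0225).

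Of the 5 peroxisomal members 1 passed without the block and 2 with it. Pex11a (ENSMUSG00000030545, chr7:79735957-79743131), which acts in the division of peroxisomes, varied little between replicates. It had 105, 103, 107 and 103 CPM in empty vector controls and 81.3, 90.04, 83.1 and 79.8 CPM after stimulation. In sgRNA cells it had 105, 108, 116 and 110 CPM in controls and 87.7, 92.7, 94.8 and 87.5 CPM after stimulation. No stimulated library reached the lowest control of 103 CPM, and treatment took 82.6% of its variance and the replicate number 4.36%. Its log2 fold change was -0.30 ± 0.05 without the block (adjusted p = 0.00179) and -0.30 ± 0.04 with it (adjusted p = 4.63e-05), and the call held in every alternative of both fits, with a highest adjusted p of 0.0493.

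Hsd17b4, the D-bifunctional protein of peroxisomal oxidation, passed with the block at -0.38 ± 0.05 and was lower in all 8 pairs. The thiolase Acaa1a had a log2 fold change of -0.22 ± 0.15, and it, the branched-chain oxidase Acox3 and the L-bifunctional protein Ehhadh did not pass in either fit. Without the stimulated empty vector library of replicate 3, Acaa1a was at -0.14, and with the block it went from -0.23 to -0.13. Of the thioesterases, which release fatty acids from acyl-CoA, Acot2 had 15.9, 17.6, 26.1 and 14.8 CPM in empty vector controls and 10.7, 11.7, 21.2 and 10.2 CPM after stimulation. With the sgRNA vectors it had 17.4, 18.7, 26.7 and 18.5 CPM in controls and 13.0, 15.0, 18.2 and 11.4 CPM after stimulation. It was lower in all 8 pairs, with replicate 5 above the others in each group, and its log2 fold change was -0.49 ± 0.17 without the block (adjusted p = 0.130) and -0.50 ± 0.07 with it (adjusted p = 7.28e-05, at most 0.00238 over the alternatives). Acot13 did not pass in either fit.

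Both tested enzymes of ketone use fell with the block. Acat1, the thiolase that splits acetoacetyl-CoA into acetyl-CoA, had 243, 246, 334 and 246 CPM in empty vector controls and 192, 184, 241 and 177 CPM after stimulation. In sgRNA controls it had 255, 256, 336 and 275 CPM, and after stimulation 202, 219, 256 and 188 CPM. All 8 pairs were lower, the empty vector groups did not overlap, and replicate 5 was the highest in each group. Its log2 fold change was -0.40 ± 0.10 without the block (adjusted p = 0.0316, from 8.54e-06 to 0.201 over the alternatives) and -0.40 ± 0.04 with it (adjusted p = 8.54e-06, from 1.63e-06 to 4.69e-04 over the alternatives). Without the block the call was lost in 11 settings: without replicates 3, 4 or 6 as a whole, without a single stimulated library of replicate 3, 4 or 6, and without a single control of replicate 5. Oxct1, which moves CoA from succinyl-CoA to acetoacetate and is the step particular to ketone use, had 415 ± 72.2 and 314 ± 75.9 CPM in empty vector controls and stimulated cells and 410 ± 68.8 and 330 ± 66.7 CPM in sgRNA cells (SD, n = 4). It passed with the block, at -0.37 ± 0.04, and was lower in all 8 pairs. Mlycd, which removes the malonyl-CoA that inhibits CPT1, passed with the block at -0.42 ± 0.10, and was also lower in all 8 pairs.

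**Figure D2:**
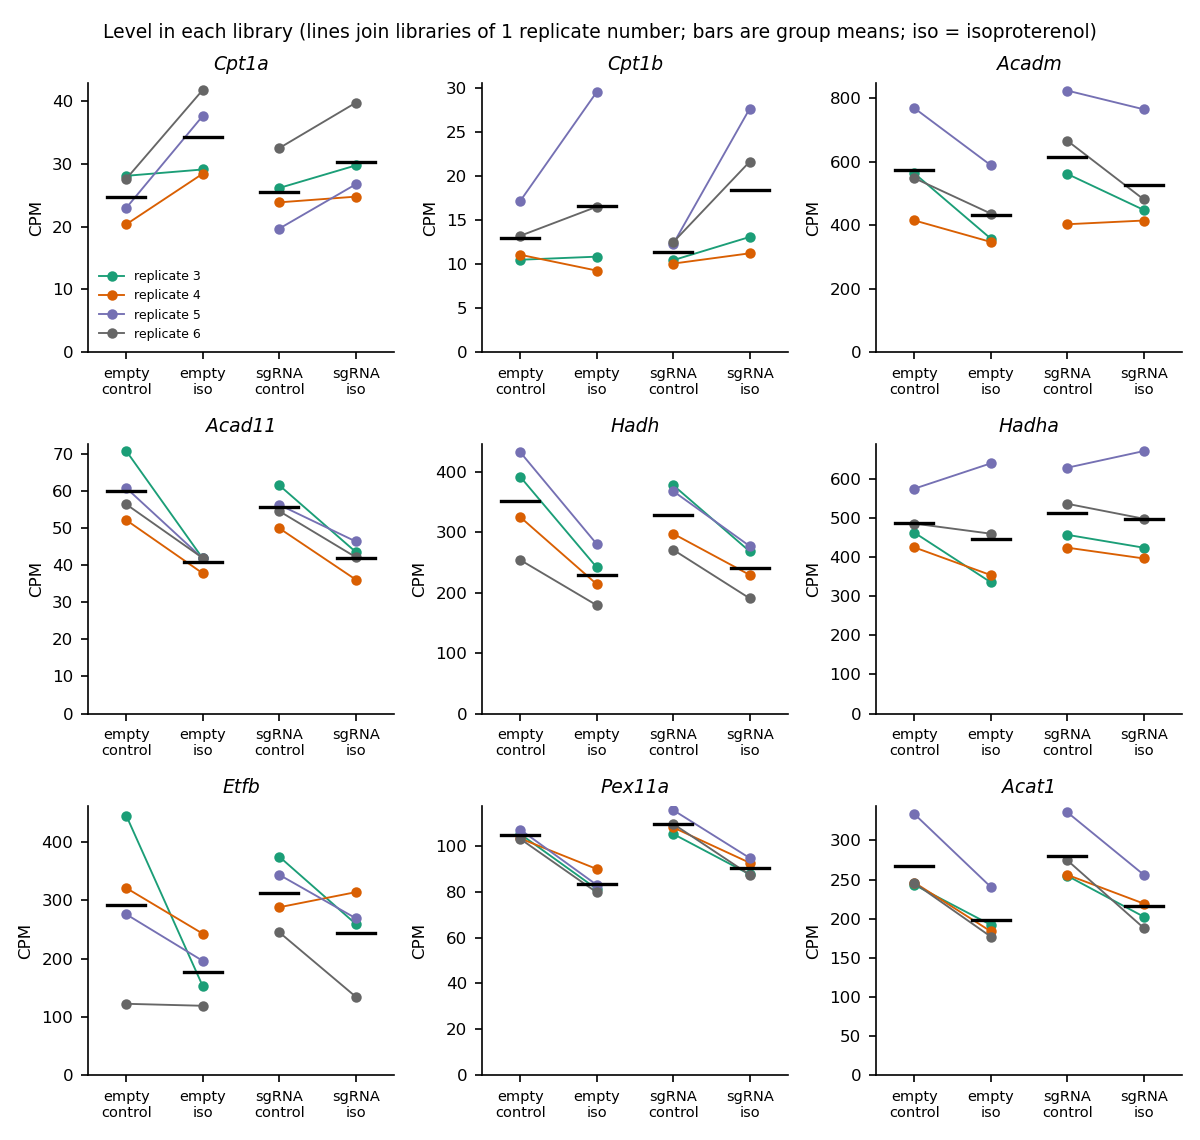
Level in CPM (vertical axis, from 0) of 9 members in each library, with the 4 groups along the horizontal axis. Points are libraries coloured by replicate number, lines join a control to the stimulated library of the same number, and black bars are group means. Acad11 and Pex11a separate stimulated from control libraries completely, while for Acadm and Hadha the replicates differ more than the treatments.

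The remaining members, Cpt1c, Acad10, Acaa2, Eci2, Acox3, Ehhadh and Acot13, had log2 fold changes from -0.14 for Ehhadh to 0.05 for Cpt1c without the block and did not pass in either fit. In bulk RNA, fewer cells of a type and less RNA per cell cannot be told apart. Of the general adipocyte markers, all 10 had lower fitted levels with isoproterenol, 4 passed without the block and 8 with it. Their summed level was 18771 to 29974 CPM in empty vector controls and 14191 to 24278 CPM after stimulation, and 22479 to 28327 and 15229 to 25948 CPM in sgRNA cells. Adiponectin (Adipoq) fell by 1.06 on the log2 scale, more than any member, while Pparg at -0.06 and Lpl at -0.01 did not pass in either fit. Of the preadipocyte and fibroblast markers, 4 of 8 were tested, and their summed level was 28.0 to 118 CPM in empty vector controls and 37.03 to 144 CPM after stimulation, and 29.7 to 90.9 and 38.1 to 121 CPM in sgRNA cells. None passed without the block, and with it Ly6a alone did, which rose by 1.09 on the log2 scale (adjusted p = 4.92e-06). Skeletal muscle markers were at or near 0 (Myod1 had 0 counts in all 16 libraries, and Ckm at most 2), and of the macrophage markers Adgre1 had at most 1 count and Ptprc at most 2, though Cd68 rose by 0.91 on the log2 scale. The 3 tested smooth muscle markers passed as lower with the block only, and the tested endothelial marker, Pecam1, did not pass. Of the 6 tested brown adipocyte markers, 2 rose without the block (Ucp1 and Ppargc1a) and 4 with it (also Cidea and Elovl3), while Prdm16 at -0.21 and Cox8b at -0.02 did not pass, and the median log2 fold change was 0.48. Several of them were low, with means over all libraries of 4.17 CPM for Ucp1, 4.07 for Cidea, 1.14 for Prdm16 and 0.799 for Cox8b. Ppargc1a had 51.9 CPM and Elovl3 267 CPM. The part of these markers in the members' values was not tested.

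The variance of each member over the 16 libraries was split by replicate number, which has 4 levels, and by treatment, which has 2, so the replicate share tends to be the larger even with no effect of either. The median share of the replicate number over the 32 members was 57.3%, from 4.36% for Pex11a to 93.8% for Eci2, against 46.8% over all genes. Isoproterenol accounted for 16.9% in the median, from 0.00538% for Cpt1c to 82.6% for Pex11a, against 6.79% over all genes. Its share was above that of the replicate number for 4 members, Acad11, Hadh, Pex11a and Acat1, which was not counted over all genes. These are also the 4 that passed without the block, where a large replicate share adds to the spread, so this is no separate result. In replicate 5 the mean over the 4 groups was the highest of the 4 numbers for 27 of the 32 members, as it was for 26.8% of all genes. The exceptions were Acad11 and Etfb, highest in replicate 3, and Cpt1a, Cpt1c and Acot13, highest in replicate 6. The empty vector libraries of replicate 5 had the largest ribosomal RNA shares of all (47.3 and 51.8%) and its sgRNA libraries had 20.2 and 20.0%, and the part of this share in the levels of replicate 5 was not tested. With the ribosomal RNA share as a further term in the block fit, 19 members passed as well, against 19.3% of all genes, with Hadh at -0.53 (adjusted p = 1.77e-06) and Etfb at -0.40 (adjusted p = 0.0245).

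The direction of the isoproterenol effect was shared by all 4 replicate numbers. The median log2 difference of the members was -0.30, -0.18, -0.14 and -0.19 in replicates 3, 4, 5 and 6, with 27, 25, 22 and 28 of the 32 lower. Within single pairs 27, 27, 23 and 26 members were lower in empty vector cells and 25, 21, 20 and 27 in sgRNA cells. Over these 8 pairs 46.9 to 52% of all genes were lower. Leaving out the stimulated empty vector library of replicate 3 left 18 of the 32 members past the threshold in the fit with the block, 16 lower and 2 higher, against 18.2% of all genes, and leaving out the empty vector control of replicate 6 left 19, against 21.8%. In the fit without the block, 3 passed when the first of these libraries was left out, against 3.33% of all genes, and 6 when the other was, against 6.06%. The counts over single pairs, the joint test and the block fit within empty vector cells were not repeated without them.

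**Figure D3:**
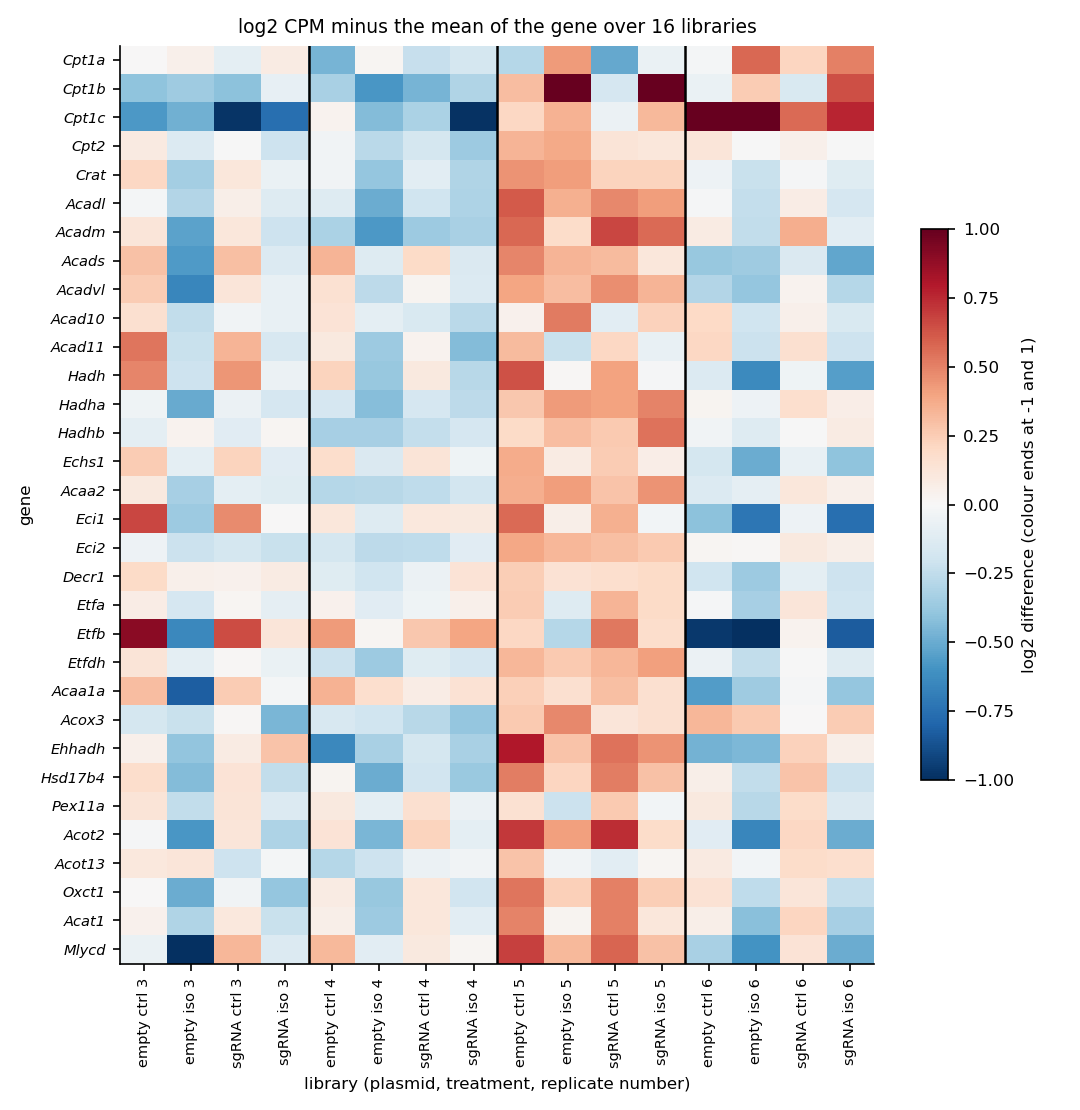
Level of each tested member in each of the 16 libraries as log2 CPM minus the mean of that gene (colour, red above and blue below, ending at -1 and 1). Columns are libraries ordered by replicate number, rows are genes. The 4 columns of replicate 5 are red for most genes, and within each number the stimulated columns are bluer than the controls for most genes.

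Isoproterenol was also compared within each plasmid. In empty vector cells 2 members passed without the block, Acad11 and Pex11a, against 0.913% of all genes, and 15 with it, against 9.57%. DESeq2 called 3, against 2.12% of all genes. Without the block, 1 passed when the stimulated library of replicate 3 was left out, against 0.519% of all genes, and 3 when the control of replicate 6 was, against 1.52%. In sgRNA cells 0 members passed in edgeR's test without the block, against 0.722% of all genes, where 4 had an unadjusted p under 0.05, against 8.46%, and DESeq2 called 2, against 1.53%. With the block 9 passed in sgRNA cells, against 8.4%, of which Acad11, Acat1, Acot2, Echs1, Hadh, Hsd17b4, Oxct1 and Pex11a were lower and Cpt1b higher. The median of the members was -0.28 in empty vector cells and -0.13 in sgRNA cells.

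Whether the plasmid altered the response is asked by the interaction, the effect in sgRNA cells minus that in empty vector cells. No member passed in edgeR's test, with or without the block, against 0% of all genes in each fit, and DESeq2 called 0, also against 0%. No member had an unadjusted p under 0.05 in either fit, against 0.395% of all genes without the block and 1.51% with it. The largest values were 0.36 ± 0.46 for Etfb, 0.35 ± 0.47 for Cpt1b and -0.22 ± 0.26 for Cpt1a, with 95% intervals from -0.65 to 1.36, from -0.67 to 1.37 and from -0.79 to 0.34. The interaction was above 0 for 29 of the 32 members and for 52.7% of all genes, with a median of 0.11 against 0.01 over all genes. This count has no test.

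**Figure D4:**
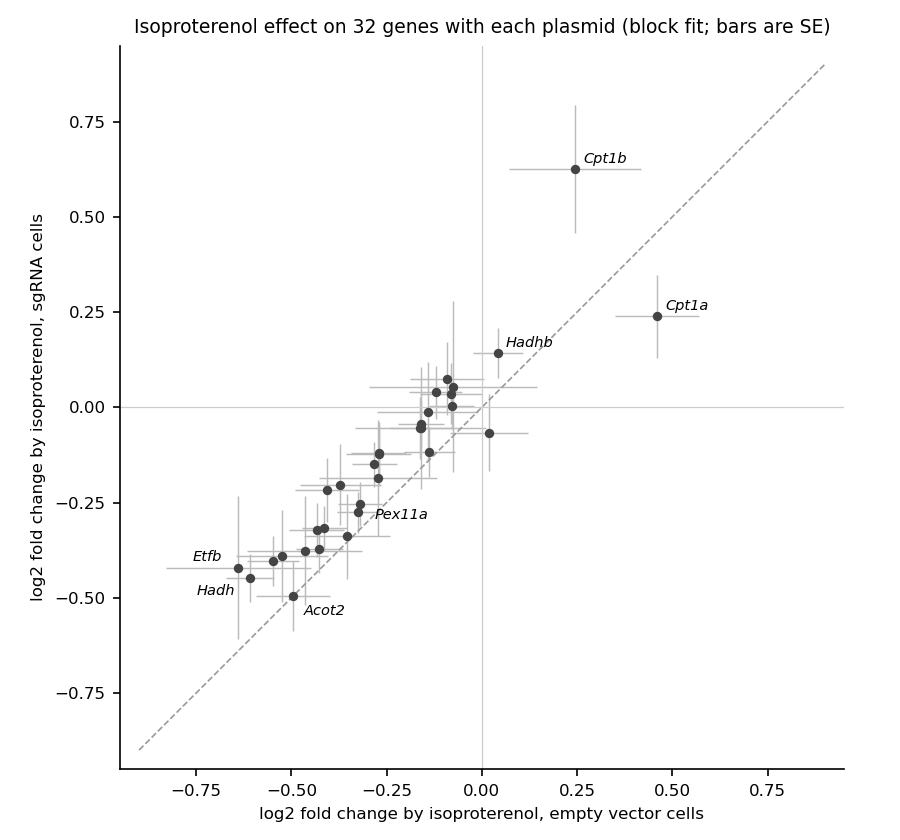
Log2 fold change by isoproterenol in empty vector cells (horizontal axis) against that in sgRNA cells (vertical axis) for the 32 tested members, from the fit with the replicate block. Bars are standard errors and the dashed line marks equal effects. Most points lie near the line and slightly above it, and Cpt1a lies below it.

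The sgRNA vectors against Gm15551 moved none of the members past the threshold. Averaged over treatments, 0 of 32 passed in edgeR's test without the block, as 0% of all genes did, and 0 with it, against 0.586% of all genes. No member had an unadjusted p under 0.05 without the block, against 3.32% of all genes, and 7 had one with it, against 11.5%. DESeq2 called 0 members, against 0.0522% of all genes. The median of the members was 0.05, against -0.01 over all genes. Within control cells it was -0.01 with 17 of the 32 lower, against 54.1% of all genes. Within stimulated cells it was 0.11 with 6 of the 32 lower, against 51.6% of all genes. No member passed within either treatment. Acat1 and Pex11a were higher in all 8 sgRNA libraries than in the empty vector library of the same treatment and number, as 1.01% of all genes were, and Cpt1c and Cpt2 were lower in all 8, as 2.07% were. In each of these 8 pairs the sgRNA library had the smaller ribosomal RNA share. Empty vector controls of replicates 3 to 6 had 20.9, 19.7, 47.3 and 28.0%, and sgRNA controls 18.6, 17.8, 20.2 and 19.7%. Stimulated libraries had 41.6, 22.1, 51.8 and 31.7% with the empty vector, and 24.0, 11.7, 20.0 and 28.7% with sgRNA. With this share as a further term in the block fit, 0 members and 11 of 13150 genes passed, against 77 genes without it.

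The largest falls were Cpt1c at -0.37 (95% interval from -1.13 to 0.40), Acox3 at -0.14 (from -0.44 to 0.17) and Acad10 at -0.14 (from -0.38 to 0.10). Cpt1c rested on 10 to 48 counts a library. The largest rises were Etfb at 0.28 (from -0.22 to 0.79), Ehhadh at 0.25 (from -0.19 to 0.70) and Acadm at 0.19 (from -0.20 to 0.58). All of these intervals held 0, and single libraries moved the values. Cpt1c was at -0.12 without the stimulated empty vector library of replicate 6, Acox3 at -0.06 and Acad10 at -0.03 without that of replicate 5, Etfb at 0.15 without the empty vector control of replicate 6 and Acadm at 0.08 without the stimulated sgRNA library of replicate 5. Ehhadh was at 0.43 without the empty vector control of replicate 5. With the share of ribosomal RNA as a term in the fit, Cpt1c, Acox3 and Etfb changed sign. Over the alternatives that left out no library, Ehhadh reached 0.66 and Acadm ran from 0.01 to 0.50.

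The joint test over all 4 groups, with the threshold of adjusted p under 0.001, called 0 members in edgeR without the block, where 0.297% of all genes passed. With the block it called 7, against 3.22% of all genes, and these were Acad11, Acat1, Acot2, Hadh, Hsd17b4, Oxct1 and Pex11a.

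Around the members, a wider list of 66 further genes of fatty acid oxidation and ketone metabolism had 65 rows and 55 tested genes. Without the block 5 of the 55 fell and 4 rose with isoproterenol, against 2.43% and 2.06% of all genes. With the block 19 fell and 10 rose, against 10.4% and 10.9%. The activation of fatty acids at the start of the pathway went both ways. Acsl1, the main acyl-CoA synthetase of fat cells, went from 2473 ± 452 to 1531 ± 264 CPM with the empty vector (SD, n = 4), and with sgRNA from 2425 ± 423 to 1626 ± 303 CPM, a log2 fold change of -0.63 ± 0.13 (adjusted p = 0.00992). Acsl4, which prefers arachidonic acid, rose from 59.4 ± 10.8 to 100.7 ± 15.8 CPM and from 62.8 ± 9.055 to 99.0 ± 7.499 CPM, a log2 fold change of 0.71 ± 0.10 (adjusted p = 6.11e-04).

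Other genes of the list passed as lower. For Acat2, the cytosolic thiolase that feeds sterol synthesis, the value was -0.78 ± 0.11 on the log2 scale (adjusted p = 8.52e-04), for Acss3 -1.18 ± 0.28 (adjusted p = 0.0262) and for the cytosolic acetyl-CoA synthetase Acss2 -0.42 ± 0.11 (adjusted p = 0.0350). Hsd17b10, a mitochondrial dehydrogenase of short branched chains, had -0.47 ± 0.12 (adjusted p = 0.0345). Pdk4 and Ppargc1a rose: Pdk4, a kinase that inhibits pyruvate dehydrogenase, by 0.59 ± 0.15 (adjusted p = 0.0345) and Ppargc1a, the coactivator of mitochondrial genes, by 0.71 ± 0.15 (adjusted p = 0.0128). The carnitine carrier Slc25a20 at 0.00 ± 0.12 and Ppara at 0.25 ± 0.32 did not pass in either fit. Ucp3 passed only with the block, at 0.92 (adjusted p = 0.0342), from levels of 0.485 ± 0.196 and 0.8285 ± 0.253 CPM in empty vector cells. For the sgRNA effect 0 of the 55 passed without the block and 1 with it, Pdk4, which was higher at 0.24 (adjusted p = 0.0487) and in 7 of 8 pairs, against 0.137% of all genes higher.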

How the data were processed

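RNA of brown adipocytes was sequenced as paired-end libraries. Per the labels and the study's methods, cutadapt and Salmon were the tools with which the authors trimmed the reads and estimated abundances on GENCODE M22 transcripts (GRCm38), with or without those of RNAcentral 5. Versions and use of strand are not given in the sources used here. The deposited values are estimated counts per gene, as whole numbers, not normalized. All columns matched a sample.

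The members and lists were chosen with earlier results of these data known. The whole table was fitted with edgeR 4.0.16 (R 4.3.3): filterByExpr (minimum count 10, total 15), TMM scaling, quasi-likelihood tests on 4 group means, two-sided, with Benjamini-Hochberg adjustment over 13150 genes. A gene passed at an adjusted p under 0.05. Each SE is the absolute log2 fold change divided by the square root of the test's F statistic, in the fit named beside it. The 95% intervals come from the fit on 4 group means, with a t value at 12 degrees of freedom. Pair differences used log2 CPM with a prior count of 2. DESeq2 1.42.0 was an alternative.

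The replicate number served as a block in a second fit. Deviations of libraries of the same number from their group means correlated in all 24 pairs (0.224 to 0.613). The 72 pairs of other numbers and groups had a median of -0.215 and ran from -0.51 to 0.516, so the ranges overlapped. The numbers were taken to pair libraries on this check and the labels' numbers alone. The scripts were tested on simulated counts. Gene models came from GENCODE M21, also GRCm38, and promoter sequences from RefSeq.

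Values in every library are given for members that passed with an absolute log2 fold change over 0.5 in either fit and for Cpt1a, Cpt1b, Acadm and Hadha in any case. For the sgRNA effect and the interaction they are the 3 largest in each direction and the 3 largest, and for the wider list the 8 largest that passed plus Slc25a20, Acsl1, Ppara, Ppargc1a and Ucp3, with some items of that rule not reported here. Acad11, Pex11a, Acat1, Acot2 and Eci1 were added after their values were seen.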

Additional observations from a re-analysis of the deposited data

Results flagged for a closer look

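In each group of 4 libraries, a value was marked where its gap to the nearest other library took more of the group's range than Dixon's ratio allows at the 95% level. This was so in 10 of the 128 groups examined over the 32 members, and chance alone marks about 1 in 20. In replicate 5, the library stood above the other 3 of its group in 8 of these. Crat had 303 CPM in stimulated empty vector cells, where the others had 173 to 193, and in the same library Acad10 had 17.3 CPM against 10.2 to 11.3, Ehhadh 7.00 CPM against 4.21 to 4.59, and Acot2 21.2 CPM against 10.2 to 11.7. Acadl had 552 CPM in the empty vector control, against 329 to 358, and Acat1 334 CPM there, against 243 to 246. Etfdh had 293 CPM in stimulated sgRNA cells, against 196 to 210.2, and Acot2 26.7 CPM in the sgRNA control, against 17.4 to 18.7. The remaining marks were low values. Acaa1a had 42.3 CPM in the empty vector control of replicate 6, against 73.4 to 79.2, and Acad11 had 37.9 CPM in the stimulated empty vector library of replicate 4, where the others lay within 41.9 to 42.0.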

How the results depend on the processing

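The count of members that passed with isoproterenol was 4 in edgeR's fit without the block and 19 with the replicate block, alone or with the ribosomal RNA share. It was 2 to 7 when replicates or single libraries were left out, with 7 without the stimulated empty vector library of replicate 5, while 1.03 to 6.42% of all genes were called in these fits (6.42% without that library). In the fit with the block it was 16 to 20 under the same omissions, with 13.4 to 22.5% of all genes called, 20 with a GC correction (added after seeing the data; 21% of all genes) and 2 with the fold bound. In empty vector cells the count was 2, and became 1 without a filter on low counts, 3 with DESeq2, 15 with the block and 0 to 3 with libraries left out, with 0.264 to 1.52% of all genes called. In sgRNA cells it was 0, and became 2 with DESeq2 and 9 with the block. The joint test went from 0 to 7 with the block. The median of the members with isoproterenol ran from -0.29 to -0.15 with libraries left out. The median of the sgRNA effect ran from -0.0102 to 0.118 and was 0.165 with the share of ribosomal RNA as a term in the fit. That term reversed the sgRNA values of Cpt1c (to 0.0195), Acox3 (to 0.112) and Etfb (to -0.0154, and to -0.0549 together with the replicate block). The cause of these changes was not tested. Of 1412 single values of members under alternatives, 1320 kept direction and side of the threshold, 43 lost the threshold, 45 gained it and 4 reversed. The count of 0 for the sgRNA effect and the interaction was the same in every alternative run. At these depths and 4 libraries a group, changes near 0.3 on the log2 scale were seen mainly with the block.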
